A study of Rattus norvegicus with 6 samples.

Results

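The genes described here are 10 AP-1 and immediate early genes. They are the AP-1 subunits Jun, Junb, Jund, Fos, Fosb, Fosl1 and Fosl2, the bZIP factor Atf3, the zinc finger factor Egr1, and Ier3. Ier3 is an immediate early gene but encodes a regulator of cell survival and no DNA-binding factor. The 10 genes were picked by symbol, and the list was chosen by a reading of these same wild-type and knockout values. Their differences are therefore given as a description and support nothing beyond themselves. All 10 had a tested row, out of 26459 tested rows in the deposited table. The cells are RUCA-I, an adenocarcinoma line from the endometrium of a Lewis rat, kept untreated in medium with serum until nearly confluent. WT is 3 batches of unedited cells, compared with 3 miR-203 -/- lines (KO), each made separately. The deposited table holds 1 pooled FPKM (fragments scaled by transcript length and by the number of mapped fragments) for each group, so no spread between samples or read depth stands behind a value printed here. A gene is called where the authors' Cuffdiff q was under 0.05, and that is the only test against replicates. WT samples are batches of 1 line and KO samples are separate lines, so the lost microRNA and differences between lines cannot be told apart. The level of miR-203 itself was not analysed here.

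AP-1 is a dimer of basic leucine zipper (bZIP) proteins. Jun proteins can pair with each other, whereas Fos proteins need a Jun partner to bind DNA. Serum and growth factors switch on Fos, Egr1 and Ier3 within minutes through ERK signalling and serum response factor, and the products fade again quickly, while Fosl1 and Fosl2 come later and last longer. In epithelial tumours AP-1 is known for driving proteases, growth factors and cell motility. Jun has been reported as a target of miR-203, whose mature 3′ strand is shown because its loss defines the KO group, with the seed (bases 2 to 8) in capitals, from RefSeq (GRCr8). Matches to this seed in the members' transcripts were not searched here.
rno-miR-203a-3p: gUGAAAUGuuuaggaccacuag

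The label of the cells was checked against markers. Of 9 epithelial markers 8 had a tested row, and Epcam had 501 FPKM in WT cells against 419 in KO cells, Krt8 had 204 and 241 and Cldn4 had 213 and 228. Among 7 fibroblast markers Col1a1 alone had a tested row (1.43 and 1.17 FPKM), none of 5 endothelial markers did, and of 7 leukocyte markers Csf1r alone did (0.791 and 0.2004 FPKM). Csf1r was called lower (q = 0.0187 in the authors' deposited table), and its part in the results below was not tested.

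In KO cells Jun was called higher and Fosl1 and Egr1 were called lower, so the AP-1 family did not move one way. That is 3 of 10 members, 1 higher and 2 lower, where 1.05% of all tested rows were called, 0.491% higher and 0.556% lower. As the members were chosen with these calls known, nothing is read from the share. The other 7 members were not called, of which Jund and Fosl2 had higher and Junb, Fos, Fosb, Atf3 and Ier3 lower values in KO cells. Over the 10 members the median log2((KO + 1)/(WT + 1)) was −0.16, beside 0.00463 over the 18090 tested rows averaging 1 FPKM or more. The 3 sizes of change were modest, none of them reaching 2-fold.

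**Figure D1:**
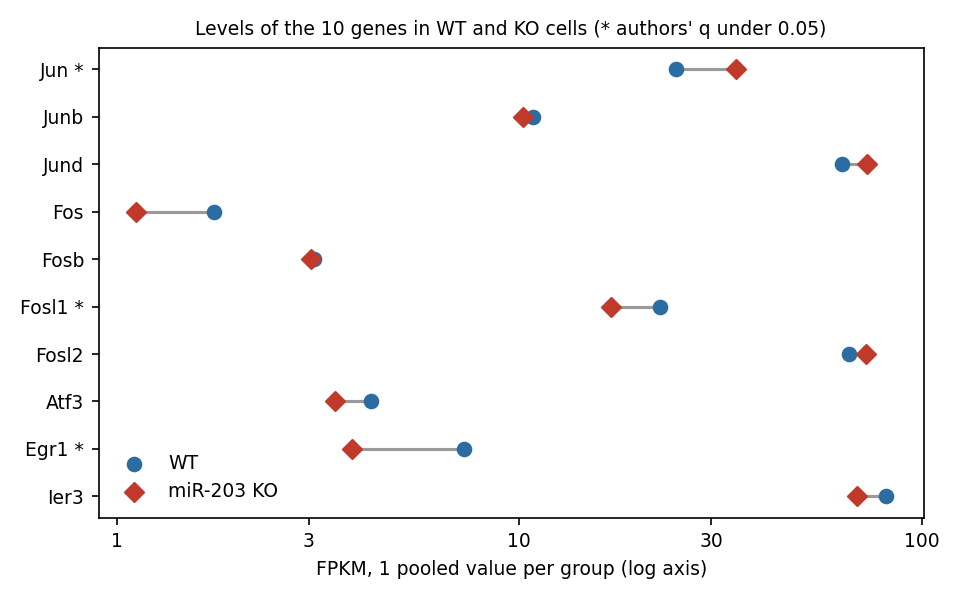
FPKM of the 10 genes on a log axis, 1 pooled value per group, with WT as circles and miR-203 KO as diamonds; stars mark the authors' q under 0.05. Levels run from 1.12 FPKM (Fos, KO) to 81.7 FPKM (Ier3, WT), and among the starred genes Jun is higher and Fosl1 and Egr1 are lower in KO cells.

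By level the members fell into abundant and scarce ones. FPKM is scaled by transcript length, so levels can be set side by side between genes. Ier3, Fosl2 and Jund stood between 63.3 and 81.7 FPKM in both groups, Jun and Fosl1 between 16.9 and 34.6, and Junb at 10.8 and 10.2. The scarce members were Egr1, Atf3, Fosb and Fos, all under 8 FPKM. Fos, the founding immediate early gene, was the lowest in both groups. With no spread per gene, whether neighbours in this order differ was not tested.

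Among the Jun genes, which encode the partners that Fos proteins need, Jun itself was the one called. The Jun gene (chromosome 5, 114011197 to 114014481 on rn6, as are all positions from the table) gave 24.6 FPKM in WT and 34.6 in KO cells. It rose by 40.7%, a log2 fold of 0.49 (p = 0.0001 and q = 0.0137 in the authors' deposited table). A log2 ratio as high was found in 8.66% of rows averaging 1 FPKM or more and above 0 in both groups. In bulk RNA, more cells with the transcript and more transcript per cell cannot be told apart. The 8 other rows of at least 5 FPKM within 2 Mb of Jun had a median log2 ratio of −0.092, and none was called. Jund, the most abundant Jun gene and often linked to growth restraint (chromosome 16, 20484936 to 20487442), had 63.3 FPKM in WT cells against 73.1 in KO cells (p = 0.0618 and q = 0.88 in the authors' deposited table). Junb, which can oppose Jun (chromosome 19, 26092885 to 26100564), stood at 10.8 and 10.2 FPKM (q = 0.997, authors' deposited table).

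Among the Fos genes Fosl1 was the one called, and Fosl2 had a value in the other direction. Fosl1, or Fra-1, the AP-1 subunit best known from invasive carcinoma cells (chromosome 1, 220826481 to 220837286), had 22.4 FPKM in WT against 16.9 FPKM in KO cells and fell by 24.4%. Its log2 fold was −0.40 (p = 0.00035 and q = 0.0351 in the authors' deposited table), which is close to the threshold. Of the 255 called rows above 0 in both groups, 2 had a smaller log2 fold than Fosl1. A log2 ratio as low as that of Fosl1 was found in 8.17% of rows averaging 1 FPKM or more and above 0 in both groups. Around it, 110 rows of at least 5 FPKM within 2 Mb had a median log2 ratio of 0.039 with none called. Fosl2, or Fra-2, a longer-lived Fos protein, was the most abundant of the Fos genes. Its main row (chromosome 6, 25599284 to 25617939) gave 66.1 FPKM in WT and 72.6 in KO cells (q = 0.997, authors' deposited table). A second Fosl2 row beside it (25594190 to 25598839) gave 68.3 and 74.6 FPKM, so both parts of the locus had the same small difference, uncalled.

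Fos and Fosb, the most transient members of the family, were scarce. Fos (chromosome 6, 109300520 to 109303889) had 1.74 FPKM in WT cells against 1.12 in KO cells. Its log2 fold of −0.64 was larger in size than that of Jun, yet it was not called (p = 0.0083 and q = 0.358 in the authors' deposited table). With a pseudocount of 1 FPKM the log2 ratio of Fos was −0.37, since the pseudocount understates low genes. Fosb (chromosome 1, 80216293 to 80221690) stood at 3.09 and 3.04 FPKM (q = 0.997, authors' deposited table).

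Summed over the family, Jun genes gave 98.7 FPKM in WT and 118 in KO cells, a value 19.4% higher. Jun contributed 10.0 FPKM and Jund 9.79 FPKM of the difference, while Junb dropped by 0.614 FPKM in value. The Jun gene made up 24.9% of the Jun family in WT and 29.4% in KO cells, and Jund 64.1% and 62.0%. For the Fos family the sums were 93.3 and 93.6 FPKM, a difference of 0.352%, with Fosl1 lower and Fosl2 higher in value. Fosl1 made up 24.0% of the Fos family in WT and 18.1% in KO cells, and Fosl2 70.8% and 77.5%. Jun and Fosl1 were close to equal in WT cells, with a ratio of 1.10, and stood at a ratio of 2.05 in KO cells. The pair was picked as the Jun and Fos genes called in opposite directions, so the change in ratio restates those calls. The sums, shares and ratio come from pooled mRNA values with no test of their own, and they say nothing of protein or of the dimers formed.

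**Figure D2:**
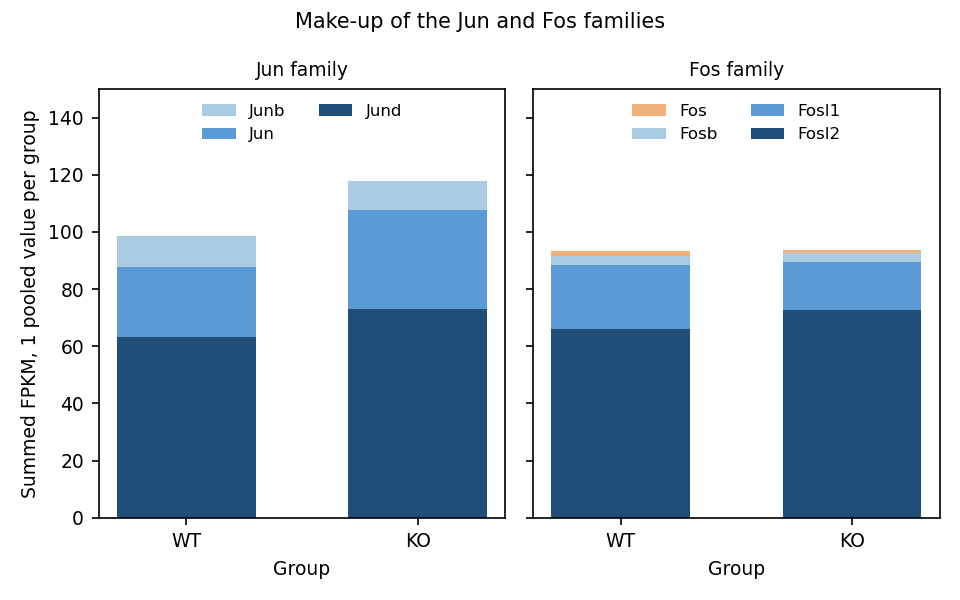
Stacked FPKM of the Jun genes (left) and the Fos genes (right) in WT and KO cells, 1 pooled value per group and gene. The Jun stack reaches 98.7 in WT and 118 in KO, while the Fos stacks reach 93.3 and 93.6 with a smaller Fosl1 layer in KO.

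The directions of the Fosl2 and Fos family differences rest on the scaling. Scaling both columns to the same total moved the median log2 ratio of all rows by −0.14. Under it the log2 ratio of Fosl2 changed sign to −0.029, the Jun family was 6.62% higher and the Fos family 10.4% lower in KO cells. Short loci weigh heavily in that total, since loci of at least 300 bp held 402982 of 928084 FPKM in WT cells. Scaling over loci of at least 300 bp, chosen after seeing the data, left Fosl2 higher in KO cells (log2 ratio 0.060). With that scaling the Jun family was 13.5% higher, and the Fos family's log2 ratio of sums was −0.068. All members but Fosl2 kept their directions under all 6 settings tried for pseudocount, scaling and row choice.

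Egr1, a zinc finger factor induced by growth signals through serum response factor (chromosome 18, 27657588 to 27661337), had the largest change of the 10. Its level was 7.30 FPKM in WT and 3.84 FPKM in KO cells, so it fell by 47.4%, or 1.90-fold. The log2 fold was −0.93 with p = 5e-05 and q = 0.00756 in the authors' deposited table. That p is the smallest value there and is shared by 175 rows, so it does not set Egr1 apart from them. Of rows averaging 1 FPKM or more, 2.14% had a log2 ratio as low. The 37 rows of at least 5 FPKM within 2 Mb of Egr1 had a median log2 ratio of −0.018, and 1 of them was called. Atf3, a stress-induced bZIP factor that can pair with Jun (chromosome 13, 109817894 to 109849590), had 4.29 FPKM in WT cells against 3.48 in KO cells (p = 0.108 and q = 0.957 in the authors' deposited table). The 20 rows of at least 5 FPKM within 2 Mb of Atf3 had a median log2 ratio of −0.089. Of these 3 were higher and none was called, and the part of that shift in the Atf3 difference was not tested. Ier3 (chromosome 20, 3438789 to 3446672) was the most abundant member in WT cells at 81.7 FPKM, against 69.0 in KO cells. Its log2 fold of −0.24 had p = 0.0441 and q = 0.807 in the authors' deposited table.

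**Figure D3:**
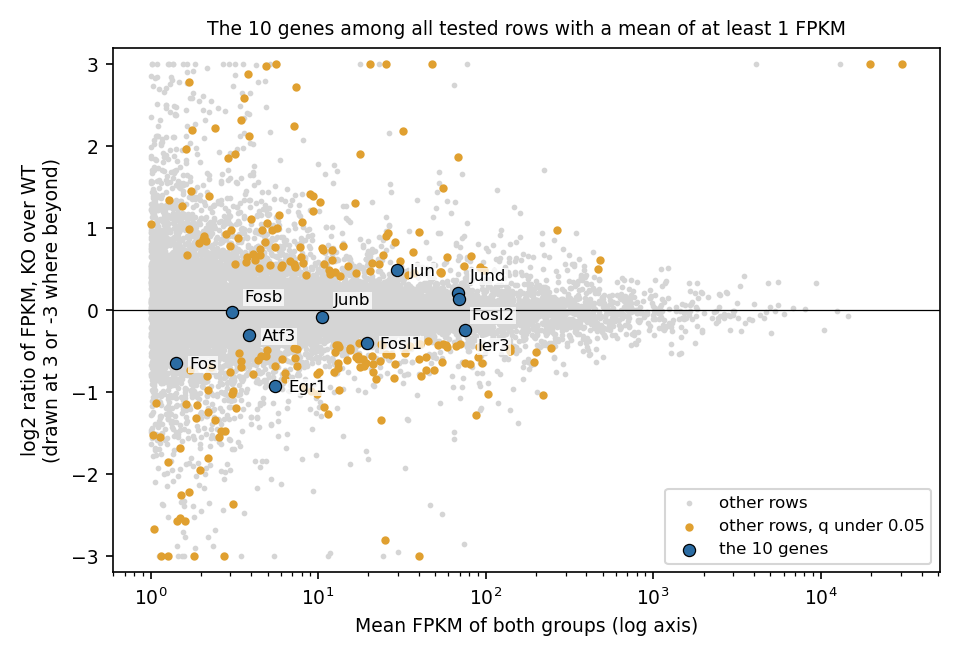
Log2 ratio of FPKM, KO over WT, against mean FPKM (log axis) for tested rows averaging 1 FPKM or more; orange points are other called rows and blue points the 10 genes, with ratios beyond 3 drawn at 3. Jun (0.49), Fosl1 (−0.40) and Egr1 (−0.93) were called and the other 7 were not. Of rows above 0 in both groups, 15.0% lay at least as far from 0 as Jun, 18.8% as Fosl1 and 5.52% as Egr1. For Fos, which was not called, the share was 10.3%.

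Promoter windows from RefSeq (GRCr8, 250 bases before to 50 after the start) were found for 6 of the 10 members, namely Junb, Jund, Fosb, Fosl1, Fosl2 and Egr1, and not for Jun, Fos, Atf3 and Ier3. The motifs searched, on both strands, were the AP-1 site TGACTCA, the cyclic AMP response element TGACGTCA and the serum response element (CArG box). The first 2 begin alike but neither contains the other. Over 33469 windows they were present in 4.63%, 1.83% and 1.64%. Egr1 held 2 CArG boxes, which begin 105 and 83 bases before the start. Jund held 1 cyclic AMP response element, which begins 221 bases before the start. No AP-1 site with these letters was found in any of the 6 windows, including that of Fosl1, and in the last 200 bases before the start only the Egr1 boxes were found. A match is a description of letters and not of binding.

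The 250 bases before the start are printed for Egr1 and Jund, the members with a match, and for Dusp5 and Lama3, described further on, which were called lower and hold 2 or more matches of a kind. Srf and Braf, which were not called, also hold 2 matches of a kind and are not printed. Capitals mark the CArG boxes in Egr1 (chr18:26736828-26737077, plus strand) and Dusp5 (chr1:262543524-262543773, plus strand), the cyclic AMP response element in Jund (chr16:18769772-18770021, minus strand) and the AP-1 sites in Lama3 (chr18:3952517-3952766, plus strand), all on GRCr8.
Egr1: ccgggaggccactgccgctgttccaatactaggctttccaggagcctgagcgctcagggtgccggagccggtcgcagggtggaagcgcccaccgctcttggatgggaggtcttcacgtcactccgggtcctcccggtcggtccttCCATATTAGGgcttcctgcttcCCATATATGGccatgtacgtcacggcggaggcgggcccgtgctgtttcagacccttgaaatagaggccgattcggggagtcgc
Jund: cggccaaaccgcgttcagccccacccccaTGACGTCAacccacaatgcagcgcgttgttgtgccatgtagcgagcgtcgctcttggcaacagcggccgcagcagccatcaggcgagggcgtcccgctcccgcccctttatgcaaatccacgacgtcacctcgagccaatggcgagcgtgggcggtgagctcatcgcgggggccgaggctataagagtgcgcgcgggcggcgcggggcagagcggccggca
Dusp5: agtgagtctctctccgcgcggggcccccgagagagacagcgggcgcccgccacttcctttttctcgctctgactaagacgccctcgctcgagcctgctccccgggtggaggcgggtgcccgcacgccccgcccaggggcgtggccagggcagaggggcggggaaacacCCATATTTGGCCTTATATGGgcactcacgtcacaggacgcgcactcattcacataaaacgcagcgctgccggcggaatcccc
Lama3: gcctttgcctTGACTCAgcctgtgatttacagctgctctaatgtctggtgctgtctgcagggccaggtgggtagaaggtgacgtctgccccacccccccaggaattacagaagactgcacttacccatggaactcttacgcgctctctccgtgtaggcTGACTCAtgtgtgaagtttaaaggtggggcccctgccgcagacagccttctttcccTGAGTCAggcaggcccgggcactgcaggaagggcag

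Other genes of the pathway were taken from 5 lists, whose genes were also chosen with earlier results of these data known. The counts of each list stand beside 1.05% of all tested rows called, 0.491% higher and 0.556% lower. For the same reason nothing is read from the shares. Among other bZIP factors 12 of 19 had a tested row, and 2 fell, none rose and 10 were not called. Atf5, a factor of the amino acid and stress response, fell from 23.7 to 15.2 FPKM, and Atf6, the membrane-bound sensor of unfolded protein, from 22.1 to 16.5 (q = 0.00756 and 0.0187, authors' deposited table). Atf4, the most abundant of the list, stood at 248 and 213 FPKM and was not called, nor were Atf1 (58.7 and 55.5) and Mafg (43.1 and 45.2, in a row shared with Sirt7). The median log2((KO + 1)/(WT + 1)) of the list was −0.083. Batf, Batf2, Batf3, Maf, Mafa and Nrl were among the 7 with no tested row.

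Of 48 other immediate early genes 35 had a tested row. In this list 5 fell, 2 rose and 28 were not called, with a median log2((KO + 1)/(WT + 1)) of −0.098. Sgk1, a kinase induced by serum and steroids, fell from 52.1 to 29.9 FPKM, 1.74-fold (q = 0.00756, authors' deposited table). Of the dual-specificity phosphatases, which switch off MAP kinases, Dusp5 fell from 45.7 to 34.2 FPKM and Dusp6 from 46.5 to 34.9 (q = 0.0236, authors' deposited table). Dusp1 (23.0 and 22.7 FPKM) and Dusp4 (15.7 and 13.8) were not called. Bhlhe40, a repressor of the circadian and hypoxia response, fell from 20.3 to 13.6 FPKM, and Plk2, a polo-like kinase, was the remaining decrease (55.2 to 33.2).

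Against these, Rhob, a small GTPase of endosomes, rose from 28.2 to 46.0 FPKM, 1.63-fold (q = 0.00756, authors' deposited table). Cebpb, a bZIP factor of another class, rose from 10.6 to 14.7 FPKM. The 35 rows of at least 5 FPKM within 2 Mb of Cebpb on chromosome 3 had a median log2 ratio of 0.15 and 27 of them were higher, with none called, and the part of that shift in its increase was not tested. The most abundant uncalled genes were Cyr61 (107 and 98.9 FPKM), Phlda1 (69.6 and 62.3) and Zfp36l1 (58.7 and 71.7). Egr2, Egr3, Egr4, Nr4a1, Nr4a3 and Ier2 were among the 13 with no tested row. In the promoter windows CArG boxes were found for 3 of 30 matched genes of this list (Klf6, Zfp36 and Dusp5), and Dusp5, like Egr1, held 2, beginning 82 and 72 bases before the start. Klf6 and Zfp36 were not called. Srf, of the upstream factors and also not called, held 2 as well, beginning 81 and 61 bases before the start.

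Of the kinases and SRF-TCF factors that act on these promoters, 29 of 34 had a tested row, and 1 fell, none rose and 28 were not called. Rps6ka3, or RSK2, a kinase downstream of ERK, fell from 19.9 to 15.1 FPKM (q = 0.0269, authors' deposited table). Map2k1, or MEK1, stood at 74.7 and 66.5 FPKM, Mapkapk2 at 55.0 and 59.0 and Rps6ka4 at 52.7 and 52.0, none of them called. Srf, the serum response factor itself, stood at 25.9 and 25.7 FPKM (q = 0.997, authors' deposited table). The list's median log2((KO + 1)/(WT + 1)) was −0.020. Regulators of AP-1 and EGR proteins had 20 of 22 genes tested with none called by Cuffdiff, where 2 had an unadjusted p under 0.05. None was called with normal p-values of the deposited statistic, but that rule calls fewer rows (0.265% against 1.05%) and so adds no support. Txn1, a redox protein that keeps AP-1 reduced, stood at 621 and 695 FPKM and Cops5, or Jab1, a coactivator of Jun, at 51.7 and 50.4. The list's median log2((KO + 1)/(WT + 1)) was −0.071.

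Of 55 genes reported in the literature as AP-1 targets 40 had a tested row. Of these 11 fell, 1 rose and 28 were not called, where 0.556% of all tested rows were called lower and 0.491% higher. As the list was chosen with earlier results known, nothing is read from these counts. The median log2((KO + 1)/(WT + 1)) was −0.19 over the 39 with a mean of at least 1 FPKM. Many of the listed genes are also targets of other factors, so the list does not isolate AP-1. Of the EGF receptor ligands Tgfa (40.9 to 30.2 FPKM) and Hbegf (18.2 to 12.9) fell, while Areg (15.2 and 12.0) and Ereg (12.0 and 12.9) were not called. Decreases were also called in the cytokines Ccl2 (297 to 145), Csf1 (15.4 to 11.2) and Csf2 (2.27 to 0.706). Lamb3 (61.2 to 36.8 FPKM), Lama3 (25.1 to 17.0) and Itga6 (27.6 to 20.6), genes of laminin-332 and its receptor, fell too, and so did Vegfa (27.6 to 20.5) and the haem oxygenase Hmox1 (59.3 to 44.2). The increase was in Nqo1, a quinone reductase (380 to 578 FPKM). In the authors' deposited table the 12 called genes of the list had q from 0.00756 to 0.0431. Anxa1 (597 and 666 FPKM), Mt2A (255 and 262) and Ccnd1 (203.4 and 208.2), the most abundant uncalled targets, had higher values in KO cells. Of the 27 targets with a promoter window 5 held an AP-1 site, and Lama3 held 3, beginning 240, 92 and 36 bases before the start.

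**Figure D4:**
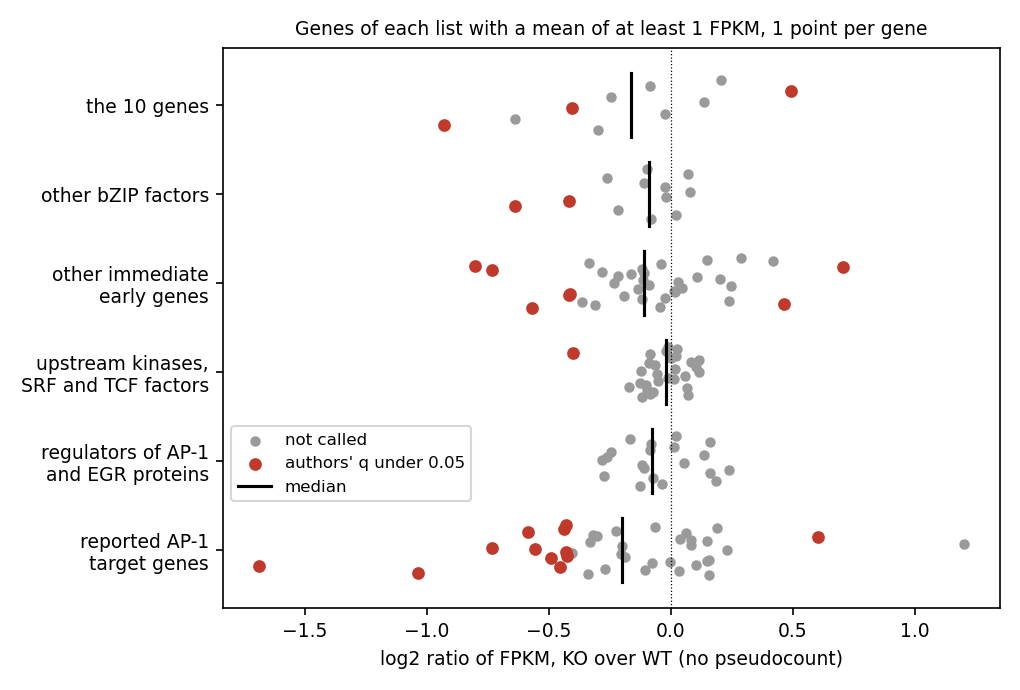
Log2 ratio of FPKM, KO over WT and without a pseudocount, for each of the 10 genes and the 5 lists with a mean of at least 1 FPKM; red points were called and black bars are medians. Among reported AP-1 targets 11 of the 12 red points lie below 0, while upstream kinases crowd around 0 with 1 red point.

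How many members are called depends on the q threshold and on the p-value used. At q under 0.01, passed by 0.661% of tested rows, Egr1 was the only member called, and at q under 0.1 (1.31%) the 3 calls were unchanged. The rows under 0.01 number 175, as many as share the smallest deposited p. They were the same 3 when the authors' p was adjusted again over the rows averaging 1 FPKM or more (1.45% called), of at least 5 FPKM (1.53%, without Fos, Fosb and Atf3) or with a gene symbol (1.27%). The deposited test statistics of Jun (2.46), Fosl1 (−1.98) and Egr1 (−3.47) have two-sided standard normal p-values of 0.0137, 0.0472 and 0.00052, which are larger than the deposited p. With normal p-values adjusted over all rows with a statistic, 0.265% of rows and none of the 10 members were called, and the adjusted p of Egr1 was 0.161. A normal p under 0.05 was found in 1.97% of rows averaging 1 FPKM or more. That is fewer than a standard normal statistic gives where nothing changes, so the normal reading is too strict and cannot decide whether the calls hold. How the authors' p was derived from the statistic is not given in the sources used here.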

How the data were processed

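Total RNA of 3 WT and 3 miR-203 KO samples was sequenced from stranded dUTP libraries, per the labels' protocols. Reads were handled with TopHat (version 0.9 in the notes), Cufflinks 2.2.1 and Cuffdiff 2.2.1.3 on build rn6, per the submitters' processing notes. Settings and annotation were not given in the sources used here. Per the file headers the deposited values are 1 FPKM per group and the authors' log2 fold, test statistic (a score), p-value and q-value. Depth per sample is unknown. Replicates are batches or lines, and nothing else says how independent they are. Cuffdiff shares reads between overlapping transcripts, so rows that share a locus are uncertain one by one.

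Members and lists were chosen with earlier results of these data known. Each symbol was looked up in tested rows, and the longest locus was used. Log2 ratios over lists used a pseudocount of 1 FPKM and rows averaging 1 FPKM or more, which all 10 members passed. No test between samples was run here; the authors' p-values were adjusted again over other sets of rows, and normal p-values were taken from their statistic. The authors' q was recomputed by Benjamini-Hochberg adjustment to within 5.12e-07. As a check of the code alone, the adjustment recovered 200 of 200 p-values planted far below the rest among 26459 simulated p-values. That outcome was fixed by the design and says nothing of changes in these data. Among 156 list entries the deposited fold differed from the FPKM ratio by over 0.01 in 5, none called. Named genes are all members, called list genes and the 3 most abundant uncalled genes of each list; Srf, the genes without a tested row, Dusp1, Dusp4, Areg, Ereg, those named for a promoter match and those of the closing section were added after their values were seen, and protein sequences were not compared. A few genes that this rule names are not reported here. Python 3.11.15, pandas 2.3.3, NumPy 2.4.6, SciPy 1.17.1 and matplotlib 3.10.9 were used.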

Additional observations from a re-analysis of the deposited data

How the results depend on the processing

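Reading normal p-values off the deposited statistic and scaling over loci of at least 300 bp are alternatives chosen after seeing the data. The normal reading is too strict for this statistic, as described above, so its counts cannot decide whether the calls hold. The 3 member calls became 1 at q under 0.01 and 0 with normal p-values. At q under 0.01 the calls became 1 of 2 for other bZIP factors, 0 of 1 for upstream kinases and 6 of 12 for reported AP-1 targets. With normal p-values they became 0 for other bZIP factors, 1 for other immediate early genes (Sgk1), 0 for upstream kinases and 1 for reported AP-1 targets (Ccl2). Members with a cyclic AMP response element went from 1 to 0 in the shorter window of 200 bases, which leaves out its position. The other 29 counts stayed within 1.5 times. The median of the members ran from −0.29 to −0.16 and the Jun family's log2 ratio of sums from 0.092 to 0.27, while that of the Fos family lay between −0.16 and 0.0051 and changed sign under 3 of 4 alternatives. No KO to WT ratio of a single member moved by over 1.5 times under any of the 6 settings. No paired analysis was possible because each group has only 1 pooled value, and for the same reason leaving out each replicate was not run.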

Other observations

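Of the 5 reported AP-1 targets with an AP-1 site in their promoter window, Lama3 alone was called, and it fell. Its q of 0.0431 in the authors' deposited table is close to the threshold. Of the 7 called targets with a window, only Lama3 held such a site, and a link of sites to changes was not tested. The uncalled targets with a site were Mmp3 (1.25 FPKM in WT and 1.39 in KO cells), Mmp10 (2.70 and 6.22), both stromelysins, Plaur, the urokinase receptor (21.7 and 17.4), and Mt2A (255 and 262). Mmp10 had the largest log2 ratio of the 5 in size, 1.20 (q = 0.997, authors' deposited table). Trib1, an immediate early pseudokinase, stood at 10.4 and 14.0 FPKM (q = 0.0683, authors' deposited table).

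Across 18080 rows averaging 1 FPKM or more, the deposited p was smaller than the two-sided standard normal p of the deposited statistic in 98.0%. An unadjusted p under 0.05 was found in 6.55% of these rows by the deposited p and in 1.97% by the normal p.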
